A study of Mus musculus with 6 samples.

Results

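The enzymes that modify and cross-link collagen were examined in myospheres: the prolyl 4-hydroxylase alpha chains P4ha1 and P4ha2 (the third chain, P4ha3, is read with their partners), the lysyl hydroxylases Plod1, Plod2 and Plod3, and the lysyl oxidases Lox, Loxl1, Loxl2, Loxl3 and Loxl4. Their probe sets were taken by gene name in the array annotation. Of the 10 genes, 9 had a probe set annotated to them alone, 16 probe sets in all among 35041 probe sets of 18193 genes. Loxl2 had none of its own, since its 2 probe sets were annotated jointly to Loxl2 and the predicted gene Gm21451. On the MOE430A chip there were 14 of the 16 probe sets and on MOE430B the remaining 2. Of the 9 genes measured, 8 gave signal above background in every replicate, and Loxl4 did not.

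Myospheres are floating clusters, here grown from hind-leg muscle of male Balb/c mice after sorting for the surface antigen Sca1. The cells had spent 4 days in neurocult, a medium for neural stem cells, with LIF, B27, EGF and a supplement spelled bf6f, and were at passage 1. Total RNA from 2000000 cells was hybridised as replicates 1, 2 and 3, each to the Affymetrix chips MOE430A and MOE430B, 6 arrays in all. There was 1 condition and no control group, and age and genotype were not given in the sources used here. The labels do not say whether the replicates were separate cultures, so the spread between arrays may be technical. Whether a low signal means fewer expressing cells or less RNA per cell cannot be told apart in such a bulk sample.

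Collagen chains are hydroxylated in the endoplasmic reticulum before they fold. Prolyl 4-hydroxylase, a tetramer of alpha chains and the beta subunit P4hb, makes the 4-hydroxyproline that keeps the triple helix stable at body temperature, while lysyl hydroxylases make the hydroxylysine on which sugars and stable cross-links are built. Both enzyme families need iron, 2-oxoglutarate, oxygen and ascorbate. Lysyl oxidases are secreted copper enzymes that oxidise lysine and hydroxylysine to aldehydes, from which the covalent cross-links of collagen and elastin form. In muscle, fibroblasts and related mesenchymal progenitors are the main makers of this matrix.

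Values below are MAS5 signals, the linear intensity summary of an Affymetrix probe set. A probe set counted as above background when its signal exceeded a limit on all 3 arrays of its chip. That limit was the 95th percentile of probe sets for genes of other tissues, such as odorant receptors and keratin-associated proteins, and it averaged 809 on MOE430A and 2922 on MOE430B. A gene was called above background if any of its probe sets passed. Probe sets differ in affinity and the chips in scale, so each signal is read against the limit of its own array. No order of levels between genes is given. Medians over lists of genes describe distance from the limit and do not rank RNA levels.

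Of 3 prolyl 4-hydroxylase alpha chains measured, P4ha1 and P4ha2 were above background on MOE430A. P4ha3, read on MOE430B alone and described with the partners, was not above it. P4ha1, the catalytic chain of the type I enzyme, gave 5143, 4373 and 5492 in replicates 1, 2 and 3 by probe set 1452094_at, a mean of 5003 ± 573 (SD, n = 3). These were 5.57 to 6.68 times the limit, so all replicates lay well clear of it. The other P4ha1 probe set, 1426519_at, gave 783.1, 760.8 and 813.2, which is 0.955 to 0.989 of the limit and just below it on each array. P4ha2, the catalytic chain of the type II enzyme, gave 3802, 3629 and 3272 by its 1 probe set, 3.98 to 4.64 times the limit.

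All 3 lysyl hydroxylases were above background. Plod1, which hydroxylates lysines of the triple helix, gave 2879, 2789 and 2299 on MOE430A, 2.80 to 3.55 times the limit, with replicate 3 the lowest. Its MOE430B probe set gave 1577, 1286 and 1348, or 0.437 to 0.526 of that chip's higher limit. Plod2, which hydroxylates the telopeptide lysines from which hydroxylysyl pyridinoline cross-links arise, was read by a pair of MOE430A probe sets, both above the limit. The first, 1416686_at, gave 3577, 3488 and 3757 and varied little, with a coefficient of variation of 3.79%. The second, 1416687_at, gave 3733, 2868 and 3135. Over the arrays they read 3.65 to 4.57 times the limit. Plod3, which also transfers sugars onto hydroxylysine, gave 6241, 5404 and 7066, 6.89 to 8.60 times the limit.

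Of the 4 lysyl oxidases with probe sets of their own, 3 were above background. Lox, the founding member of the family, gave 2973, 2053 and 2186 by 1416121_at and 1746, 1493 and 1926 by 1448228_at, 1.90 to 3.63 times the limit. The third Lox probe set, 1437903_at, gave 83.2, 122.6 and 98.98, or 0.102 to 0.156 of the limit. The 3 Lox probe sets therefore did not place the gene on the same side of the limit. Loxl1, an elastic fibre cross-linker that binds tropoelastin, gave 9657, 8403 and 8844 on MOE430A, 10.7 to 11.8 times the limit. Its MOE430B probe set gave 2345, 1011 and 1818, below that chip's limit on all arrays and varying 2.32-fold between them. Loxl3, one of the family members with scavenger receptor domains, gave 3081, 2767 and 2546, 3.10 to 3.76 times the limit.

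Loxl4, another member with scavenger receptor domains, was the 1 measured gene not above background. Probe set 1421153_at gave 610.0, 756.1 and 626.9, or 0.744 to 0.964 of the limit. Probe set 1450134_at gave 444.2, 342.6 and 751.4, or 0.437 to 0.914 of it, and varied 2.19-fold between arrays. Both stayed below the limit in every replicate, the first by little in replicate 2, so Loxl4 was not detectable above background here and is not shown to be absent. With the median of all probe sets of an array as the limit, a lower bar that 53.8% of genes passed, Loxl4 was above it and all 9 genes counted.

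**Figure D1:**
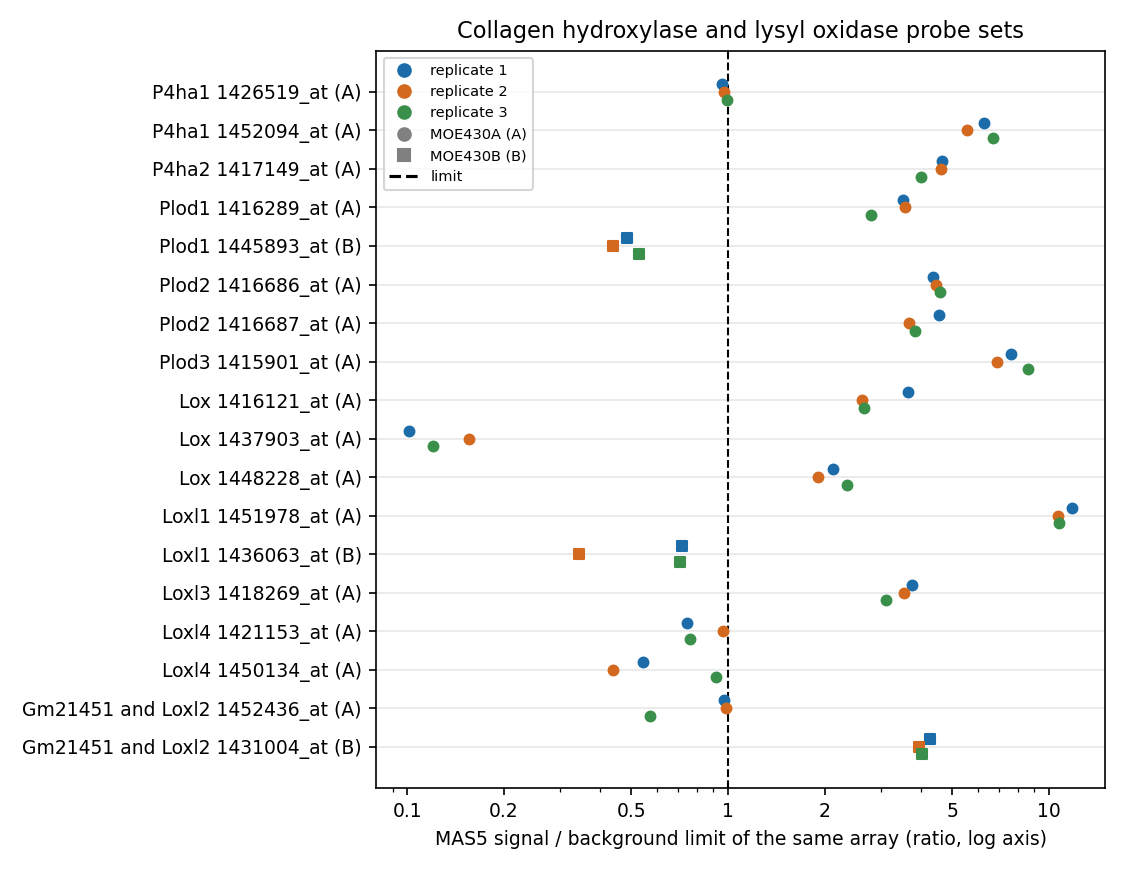
Signal of each probe set divided by the background limit of its own array, on a log axis, for replicates 1, 2 and 3 (colours) on MOE430A (circles) and MOE430B (squares); the dashed line at 1 is the limit. The 10 probe sets that count as above background lie right of the line in every replicate. Left of it lie both Loxl4 probe sets, the MOE430B probe sets of Plod1 and Loxl1, P4ha1 1426519_at and Lox 1437903_at. The bottom pair is shared by Gm21451 and Loxl2, with 1431004_at right of the line and 1452436_at left of it.

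Set beside the whole array, the 8 of 9 genes above background compare with 36.1% of all genes measured. Genes with more probe sets have more chances to pass, and the members were therefore also read by number of probe sets. All 3 members with 1 probe set passed, where 22.1% of such genes did. Among the 5 members with 2 probe sets, 4 passed against 42.3%, and Lox, the 1 member with 3 or more, passed against 59.1%. Each measured member had a MOE430A probe set, and on that chip alone 8 of 9 members passed against 42.7% of genes. The lowest array of a member's best probe set had a median of 3.98 times the limit, against 0.759 over all genes on MOE430A. By probe set, 10 of 14 member probe sets on MOE430A were above the limit against 35.5% of single-gene probe sets, and 0 of 2 on MOE430B against 13.5%. These shares are descriptions, as the genes are not independent of each other.

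Requiring every probe set of a gene to pass left 4 of the 9, namely P4ha2, Plod2, Plod3 and Loxl3, against 15.3% of all genes. P4ha2, Plod3 and Loxl3 have 1 probe set each, so for them this rule was the same as the main one. Of the 4, only Plod2, with 2 of 2 probe sets above the limit, met a stricter rule. P4ha1, Plod1, Lox and Loxl1 thus rested on some of their probe sets. Disagreement of this kind was common: of 2973 genes with several MOE430A probe sets and at least 1 above the limit, 73.5% also had 1 that was not, and among members this held for P4ha1 and Lox but not for Plod2. Control probe sets at the 3' end read 13.8 times (Gapdh) and 10.4 times (actin) as high as those at the 5' end on MOE430A. Where in the transcripts the member probe sets lie was not analysed here, and the part of this end difference in their disagreement was not tested.

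Promoter sequence was available from RefSeq (GRCm38.p6) for 5 members, P4ha1, P4ha2, Plod1, Plod3 and Loxl4, as 250 bases before to 50 after a transcription start. P4ha1 and several other collagen hydroxylase genes are textbook targets of the hypoxia-inducible factors, whose binding core is ACGTG or GCGTG, the first also contained in the E-box CACGTG. The form ACGTG, searched on both strands, was present in 3 of the 5 windows, those of P4ha1, P4ha2 and Plod3, and in 19.6% of 32851 promoter windows of the same length. The stretches around it are shown 5′ to 3′ on the strand of the gene, with ACGTG in capitals, which reads CACGT where it lies on the opposite strand.
P4ha1, chr10:59323266-59323295: ggtgtgacagagcgCACGTagcgagggctg
P4ha2, chr11:54100819-54100878: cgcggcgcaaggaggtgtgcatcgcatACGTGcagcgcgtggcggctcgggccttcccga
Plod3, chr5:136986938-136986997: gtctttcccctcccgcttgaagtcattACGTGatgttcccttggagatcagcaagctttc
This form begins 16 bases before the start in P4ha1, 78 in P4ha2 and 54 in Plod3. P4ha2 holds another 11 bases into the transcript. The P4ha1 window belongs to a start 99 bases inside the annotated gene. The windows of Plod1, which was above background, and of Loxl4, which was not, did not hold ACGTG. The other form, GCGTG, whose search was added after these results were seen, was in all 5 windows and in 32.4% of all promoter windows, and is left in lower case where it occurs in the stretches shown. These 5 windows held 53.3% to 75% G and C bases, and the shares over all promoter windows were not matched for that. A match is a description of the sequence and says nothing of binding in these cells.

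Partners of these enzymes were read by the same rule, and each value given is that of the gene's best probe set. Bmp1 passed by 1 of its 3 probe sets and Tgm2 by 2 of 6. Col1a1, Eln, Fn1, Atp7a, Slc23a2, Egln1, Egln3 and Maoa each passed by 1 of 2, and Mia3 and Hif1a by 3 of 4. P4hb, Crtap, Serpinh1, Pcolce, Col3a1, Slc31a1, Pxdn and Maob passed by all of theirs. Of 10 chain partners and other collagen modifying enzymes, 7 were above background, where 36.1% of all genes were. The lowest array of their best probe sets had a median of 2.30 times the limit, against 0.581 over all genes on both chips. P4hb, the beta subunit that completes prolyl 4-hydroxylase, gave 61573, 59629 and 64024, at least 75.1 times the limit on each array. Crtap, a subunit of the prolyl 3-hydroxylation complex, gave 7266 ± 336 (SD, n = 3). P4ha3, the third alpha chain, gave 1439, 1093 and 974.9 on MOE430B and was below the limit on all arrays. Colgalt2 and P3h2 were the others not above it, P3h2 being above on 2 of 3 arrays. All 3 were read by 1 probe set each, on MOE430B, where 13.5% of single-gene probe sets passed against 35.5% on MOE430A. The best probe sets of the 7 that passed were on MOE430A, so gene and chip cannot be told apart here.

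Of 10 genes measured for procollagen folding and export, 9 were above background, against 36.1% of all genes. Serpinh1, the collagen chaperone Hsp47, gave 21285, 23172 and 22809, at least 26.0 times the limit. Mia3, which loads procollagen into transport carriers, gave 2024 ± 76.3 (SD, n = 3). Creb3l1, a transcription factor of collagen secreting cells, was above the limit on 2 of 3 arrays and did not count. Fkbp10 had no probe set of its own and was not analysed here.

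Among genes that remove propeptides or activate Lox, 6 of 9 measured were above background, against 36.1% of all genes. Bmp1, the protease that cleaves both the procollagen C-propeptide and the Lox propeptide, gave 2378, 2272 and 4159, with replicate 3 the highest. Pcolce, which enhances that cleavage, gave 34894 ± 6691 and fibronectin (Fn1), a binding partner of Lox, 19500 ± 3764 (SD, n = 3). The Bmp1 relatives Tll1 and Tll2, and Adamts3, were not above the limit.

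Substrates were above background for 10 of 12 genes, against 36.1% of all genes. Col3a1 gave 57557, 63995 and 62844, at least 70.2 times the limit. Col1a1 gave 2245, 6615 and 7014, so that replicate 1 lay far under the others, although its lowest array was still 2.74 times the limit. Eln, the elastin gene, gave 1885, 1654 and 1701, at least 2.07 times the limit. Col2a1 and Col11a1, fibrillar collagens of cartilage, were not above it.

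The supply of cofactors was read through 10 genes, of which 8 were above background, against 36.1% of all genes. Atp7a, the copper pump that loads secreted copper enzymes, gave 1863, 2077 and 1631. Slc31a1, the copper importer, lay close to the limit, at 1.08 times it on the lowest array. Slc23a2, an ascorbate transporter, gave 3493 ± 310 (SD, n = 3), while its relative Slc23a1 was not above the limit. Of 10 oxygen sensing genes, 9 were above, beside the same 36.1%. Many of them lay close to the limit, the lowest array of the list's best probe sets having a median of 1.37 times it. Hif1an, Epas1, Egln3, Vhl and Arnt lay at 1.05 to 1.38 times it on that array, each passing by 1 probe set. The other genes that passed lay at 3.00 to 26.3 times it. Hif1a gave 21824 ± 324, the HIF prolyl hydroxylase Egln1 2993 ± 308 and Egln3 1214 ± 226. P4htm, a membrane prolyl hydroxylase, was the exception. Among other cross-linking enzymes and amine oxidases, 4 of 8 were above, too near the 36.1% of all genes to say much of this list. These were Tgm2 at 5166 ± 1634, Pxdn at 20296 ± 3541 on MOE430B, Maoa and Maob. Aoc3, a copper amine oxidase of fat and smooth muscle, gave 775.0, 855.8 and 325.8 and was above the limit in replicate 2 alone.

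Markers of cell types were read by the same rule, which cannot test the tissue that the cells came from. Col3a1 and Col1a2, listed among the fibroblast and mesenchymal markers, were also counted as substrates above. All 7 fibroblast and mesenchymal markers were above background, with the lowest array of their best probe sets 4.06 to 171 times the limit, whereas 0 of 7 myogenic markers passed on every array, their lowest arrays lying at 0.0481 to 0.890 of it. Myod1 and Myog, regulators of myoblast fate and differentiation, were above the limit on 2 of 3 arrays, Des, Acta1 and Ckm on 1, and Pax7 and Myf5 on none. Of the other cell types, 2 of 5 endothelial, 2 of 5 pericyte and smooth muscle, 2 of 5 macrophage and leukocyte, 1 of 4 neural and 1 of 4 bone and cartilage genes were above it, shares near the 36.1% of all genes, so that these counts say little of those cell types. With 1 condition, the part of each cell type in the enzyme signals was not tested. Ly6a, the gene of the sorted antigen, was not analysed here.

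**Figure D2:**
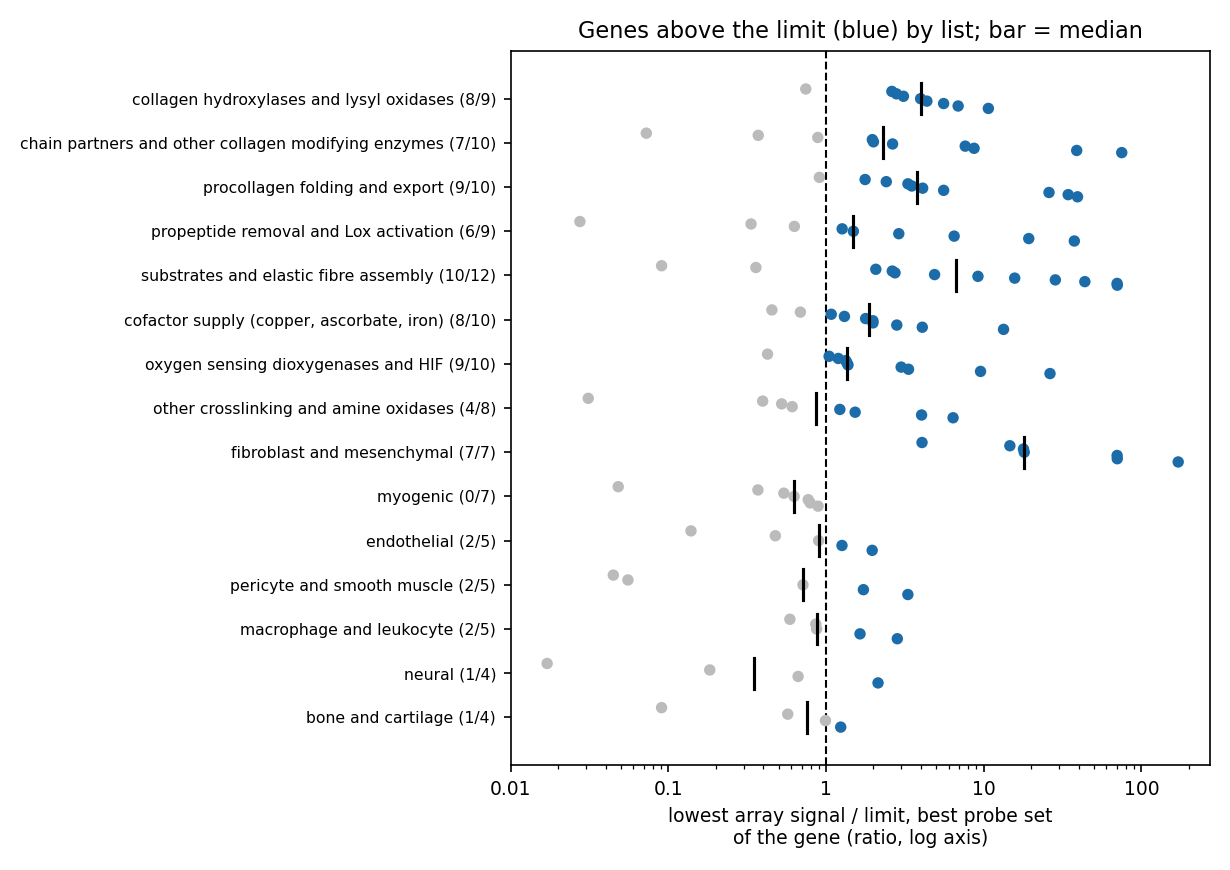
Each point is 1 gene, placed at its lowest array signal over the limit by its best probe set (log axis), in blue where above 1 on all 3 arrays; the bar is the list's median and the numbers are genes above over genes measured. The collagen hydroxylases and lysyl oxidases, with 8 of 9 genes in blue and a median of 3.98, sit among 7 other pathway lists whose medians run from 0.864 (other crosslinking and amine oxidases) to 6.70 (substrates), while all 7 myogenic markers lie left of the dashed limit by their lowest array.

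Between replicates, the enzymes spread about as much as other genes above background. The 10 member probe sets above the limit had a median coefficient of variation of 11.6%, from 3.79% to 20.7%, against a median of 12.9% over the 7242 single-gene probe sets above the limit on MOE430A. Their highest array exceeded the lowest by 1.08-fold (Plod2, 1416686_at) to 1.45-fold (Lox, 1416121_at). Replicate 2 was the lowest for 7 of the 10 and the highest for none. Of all such probe sets it was the lowest for 39.3% and the highest for 32%. The 7 include both Plod2 probe sets and both Lox probe sets above the limit, so they are not 7 separate genes. Replicate 3 was the lowest for the other 3, those of P4ha2, Plod1 and Loxl3, against 31.6% of all such probe sets. Replicate 1 was the lowest for none, against 29.1%.

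**Figure D3:**
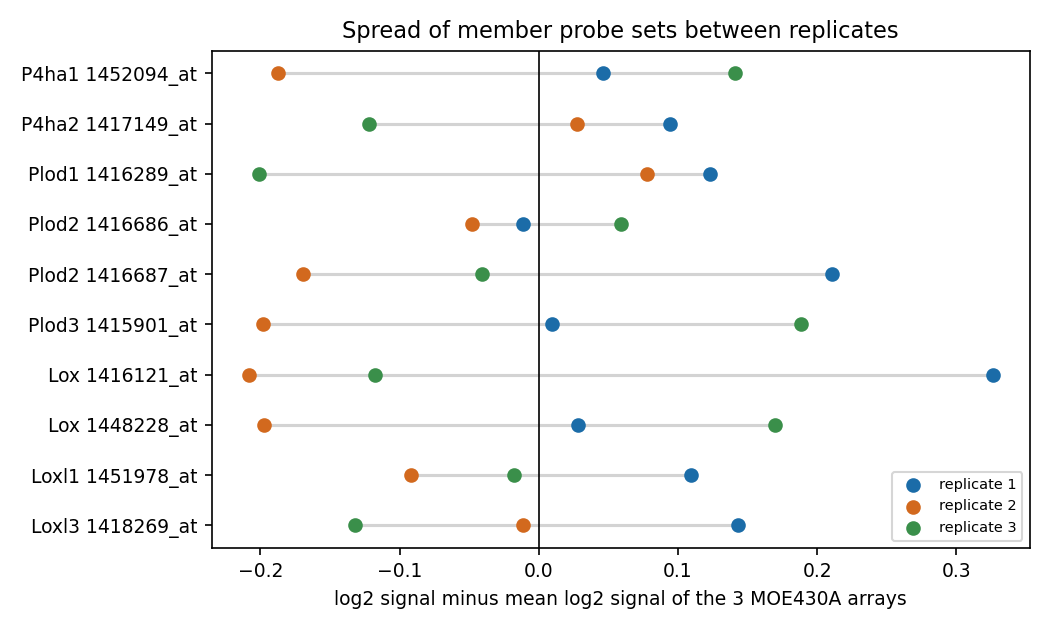
For each of the 10 member probe sets above the limit, log2 signal of replicates 1, 2 and 3 minus the mean of the 3 MOE430A arrays. Replicate 2 is leftmost for 7 of the 10 probe sets, and the widest spread, 1.45-fold between highest and lowest array, belongs to Lox 1416121_at.

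Differences between replicates can be tested only for genes read on both chips, since each chip holds 1 array per replicate. In the limma moderated F-test, which took genes whose mean signal passed the mean limit on each chip, 7 of 613 genes (1.14%) differed at an adjusted p under 0.05, and 0 of the 9 members could enter. Its error term is the disagreement between the chips, with different probe sets, on the same replicate, so it does not measure spread between cultures. Without that filter, limma called 0.0% of 3807 genes (92 at an unadjusted p under 0.05). Loxl1, lowest in replicate 2 on both chips, then had an adjusted p of 0.942, and Plod1 an adjusted p of 0.962.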

How the data were processed

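Total RNA of 1 group, myospheres, was measured on 6 arrays, 3 replicates on each of 2 chips. The authors deposited linear MAS5 signal intensity, a tool the submitters' processing notes name without a version. Trimmed by 2% at either end, the mean lay between 1500 and 1501 in all arrays, so each had been scaled to 1 target. Genes came from the platform annotation, updated by Entrez number through RefSeq (GRCm38.p6), and probe sets with several genes name none. The limit rested on 150 reference probe sets on MOE430A and 43 on MOE430B, of which 4 and 2 passed the rule themselves. MOE430B read higher than MOE430A for the 100 probe sets they share (median log2 difference 1.86), none of them a member's. Pearson correlations of log2 signal between replicates, over probe sets, were 0.916 to 0.922 for MOE430A but 0.749 to 0.773 for MOE430B. Having 3 arrays per chip limits the precision.

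For the replicate test each gene was the mean log2 signal of its probe sets whose mean passed the mean limit, per chip. It was fitted with limma 3.58.1 in R 4.3.3 (F-test with intensity trend, chip as covariate, Benjamini-Hochberg adjustment) and tested on simulated data. Other steps used matplotlib 3.10.9, scipy 1.17.1, pandas 2.3.3 and numpy 2.4.6 under Python 3.11.15. The members, lists and tests were chosen with earlier results of these data known. Named are all members and the first 3 genes of each pathway list; other names were chosen after their values were seen. Alternatives varied the limit, its reference, the probe sets used, the normalization and the replicates.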

Additional observations from a re-analysis of the deposited data

Results flagged for a closer look

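A probe set that no count above uses gave clear signal. On MOE430B, 1431004_at, annotated jointly to Gm21451 and Loxl2, gave 13950, 11606 and 10329, a mean of 11962 ± 1837 (SD, n = 3) and 3.95 to 4.27 times the limit. The other joint probe set, 1452436_at on MOE430A, gave 795.0, 772.8 and 470.7, or 0.573 to 0.985 of its limit. The annotation does not say which of the 2 genes either signal belongs to.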

How the results depend on the processing

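The count of 8 member genes above background stayed 8 under 11 of 13 alternatives, with Loxl4 the gene not above. Several of these could not lower it: the 90th percentile, 2 of 3 arrays and each omission of a replicate only eased the rule. Leaving out probe sets of shared sequence removed no member probe set, and MOE430A alone removed only 2 that were below the limit. The 99th percentile, receptor families alone, quantile normalization and 1 probe set per gene could have lowered it and gave 8. The count was 9 with the array median as limit, where the log2 ratio of Loxl4 to the limit on its lowest array turned from -0.43 to 0.036, and 4 with all probe sets required. The count of probe sets, 10 of 16, stayed within 1.5 times under all 11 alternatives run for it. It rose to 11 with the 90th percentile and to 14 with the array median as limit, and was 10 in the others. The 7 genes differing between replicates became 4 with median centring, 0 with quantile normalization, 0 with all genes on both chips and 0 without the intensity trend, at unadjusted counts of 38, 38, 92 and 56; the cause was not tested. Leaving out replicates gave 0 to 5 (0 without replicate 1 and 0 without replicate 2). No paired analysis was possible because the replicate number is the factor tested and the counts above background come from no test. With 43 reference probe sets, the MOE430B limit is the less certain; receptor families alone gave 14 there, under the minimum of 20, so that limit was moved from MOE430A by the shared probe sets.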
